A study of Mus musculus with 8 samples.

Results

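The 10 genes described here encode the peroxisome proliferator-activated receptors *Ppara*, *Ppard* and *Pparg*, the retinoid X receptors *Rxra*, *Rxrb* and *Rxrg*, the liver X receptors *Nr1h2* and *Nr1h3*, and the coactivators *Ppargc1a* and *Ppargc1b*. They were chosen by name, and each matched 1 of the 54532 genes in the deposited table. The RNA came from spermatocytes of C57BL/6J mice. They were collected at postnatal day (PD) 24 or PD 52 as pachytene (P) or leptotene or zygotene (L/Z) fractions. MFN2 WT mice carried Mfn2 loxp/loxp without Cre, and MFN2 cKO mice carried Mfn2 loxp/loxp with Stra8-Cre. All 8 groups thus carried the floxed allele by their labels, although the study's text also counts animals with 1 floxed allele as MFN2 WT. Stra8-Cre acts in male germ cells from early spermatogonia on, so the somatic cells of the testis keep *Mfn2*. Fractions were judged by cell diameter and morphology after sedimentation in an albumin gradient, and the number of animals behind each library is not given in the sources used here. Each group was 1 library, with 14340665 to 20379950 reads on genes.

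PPARs, ligand-gated transcription factors, sense fatty acids and their derivatives and switch on genes of lipid uptake, storage and oxidation. They bind DNA as a pair with an RXR, at repeats of a short core element, and LXRs, which sense oxidized cholesterol, pair with the same RXRs. PGC-1 proteins do not bind DNA themselves. They are recruited by PPARs and other factors, and are best known for driving mitochondrial genes in muscle, liver and brown fat. In the testis RXR and LXR genes are known for roles in Sertoli and Leydig cells as well as in germ cells.

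The libraries were first checked against their labels. *Mfn2*, the targeted gene, was at FPKM 77.1 in WT and 39.6 in cKO P cells at PD 24, and the P pair of PD 52 had 62.2 and 50.1. The L/Z pairs had 82.2 and 34.3 at PD 24, then 97.5 and 47.9 at PD 52, so *Mfn2* was lower in MFN2 cKO in 4 of 4 pairs. These values cover the whole gene and not exon 6 alone. The stage markers did not divide the libraries by their labels. Of 10 pachytene markers 2 were called higher in P and 1 lower, with 4 of 10 higher and a median difference of -0.08. *Piwil1* of this list, chosen after its values were seen, was between 168 and 278 in the P libraries and between 16.0 and 40.5 in the L/Z libraries. Of 10 leptotene and zygotene markers 5 were called higher in P and 2 lower, and *Ldhc*, the pachytene marker with the highest level, was between 1494 and 2439 in L/Z and between 1647 and 2910 in P. *Ldhc* RNA was thus abundant in both, and the stage names below are those of the labels.

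RNA of other cells was measured in all libraries, and each of the 5 lists of these markers that are plotted had all of its genes above 0 in every library. Sertoli cell markers summed to FPKM 417 to 1115 in P and to 41.6 to 358 in L/Z, and 12 of 12 were called higher in P. Spermatid markers summed to 513 to 20011 in L/Z and to 140 to 4962 in P, with 13 of 14 called lower in P, and 13 of 14 were called higher at PD 52. Macrophage markers summed to 42.9 to 285 in L/Z and to 12.0 to 54.8 in P, with 9 of 10 tested called lower in P. Peritubular myoid markers summed to 49.9 to 173 in L/Z and to 6.50 to 34.9 in P, with 5 of 5 tested called lower in P. Leydig cell markers summed to 114 to 686 in MFN2 cKO and to 34.6 to 282 in MFN2 WT, with 4 of 9 called higher in MFN2 cKO. Without 1 pair only 0 to 2 of all genes were called with genotype, so these 4 calls do not all hold there. Of the macrophage markers 10 of 10 tested were higher in MFN2 cKO, by a median of 1.19, with 0 called. The part of these cells in the results on the 10 genes was not tested. In bulk RNA, fewer cells of a type and less RNA per cell cannot be told apart.

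**Figure D1:**
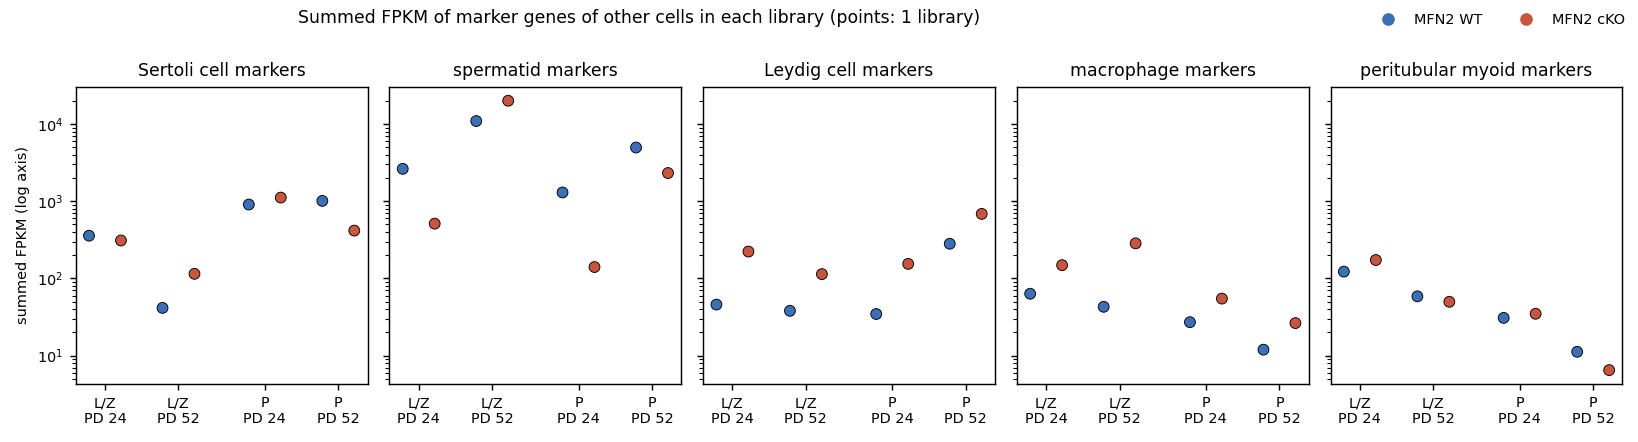
Summed FPKM (log axis) of the marker genes of 5 other cell types in each library, with 1 point per library and MFN2 WT in blue and MFN2 cKO in red. Sertoli cell markers lie between 417 and 1115 in the 4 P libraries and between 41.6 and 358 in the 4 L/Z libraries, while macrophage and peritubular myoid markers lie lower in P than in L/Z at each age and genotype.

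The level of a gene is given as FPKM, reads scaled for gene length and library depth, so that genes of different length can be set side by side. The families differed in level by an order of magnitude. The LXR genes summed to FPKM 19.9 to 35.5, the RXR genes to 11.3 to 19.1, the PPAR genes to 1.91 to 3.24 and the PGC-1 genes to 0.709 to 1.70. By mean over the 8 libraries, *Nr1h2* stood above 87.0% of the protein-coding genes of the table, *Rxrb* above 75.8%, *Rxra* above 68.4% and *Nr1h3* above 65.9%. The other 6 genes stood above 26.2% to 44.3%. They had at most 145 reads in any library, so that their counting intervals are wide.

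**Figure D2:**
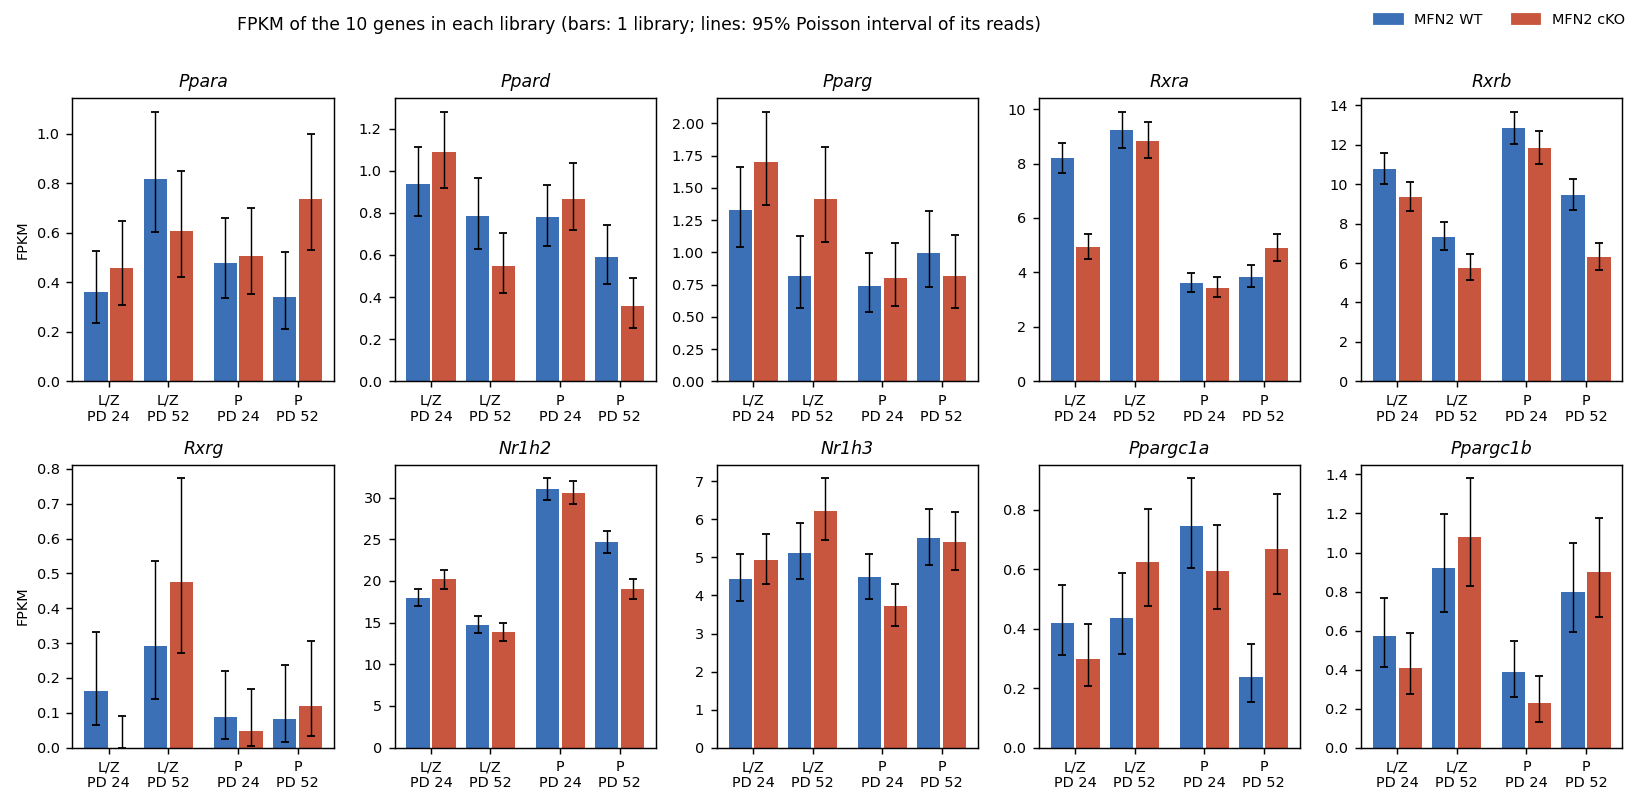
FPKM (linear axes from 0) of each of the 10 genes in each of the 8 libraries, as bars for MFN2 WT (blue) and MFN2 cKO (red) with 95% Poisson intervals of the reads, which cover counting error only. *Rxra* is at 4.93 or above in the 4 L/Z libraries and at 4.89 or below in the 4 P libraries, and *Nr1h2* is highest in P at PD 24. No neighbours in the order of levels of *Ppara*, *Pparg*, *Rxrg*, *Nr1h3*, *Ppargc1a* and *Ppargc1b* differ beyond counting error.

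*Ppara*, the receptor that drives fatty acid oxidation in liver, was at FPKM 0.359 in WT and 0.456 in cKO L/Z cells at PD 24, with 0.819 and 0.606 at PD 52. The P libraries had 0.478 and 0.505 at PD 24, and 0.341 and 0.736 at PD 52. These rest on 21 to 47 reads a library. The lowest and the highest library were both MFN2 WT at PD 52, P and L/Z, and differed 2.40-fold, with a counting interval of 1.41 to 4.22. None of the 7 steps between neighbours in the order of its levels exceeded the counting error.

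*Ppard*, the most widely expressed PPAR in the body, was at FPKM 0.937 in WT and 1.09 in cKO L/Z cells at PD 24, with 0.782 and 0.546 at PD 52. The corresponding P values were 0.778 and 0.866, then 0.589 and 0.358. It was lower at PD 52 in 4 of 4 pairs, lowest in P cKO at PD 52, and that library alone was separated from its neighbour by more than counting error.

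*Pparg*, the receptor of fat cell differentiation, was at FPKM 1.33 in WT and 1.70 in cKO L/Z cells at PD 24, with 0.814 and 1.41 at PD 52. Levels in P were 0.739 and 0.801 at PD 24, then 0.992 and 0.817. The 3 libraries above FPKM 1 were all L/Z. The share of *Pparg* in the summed PPAR FPKM was between 33.7% and 55.1%, and no PPAR gene was the highest in every library. The summed PPAR level was 2.42 to 3.24 in L/Z and 1.91 to 2.17 in P.

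Of the RXR genes, *Rxrb* held 38.2% to 77.6% of the summed FPKM and *Rxra* 21.8% to 58.6%. *Rxrb* was above *Rxra* in all libraries but L/Z WT and L/Z cKO at PD 52, where the ratio of *Rxra* to *Rxrb* was 1.26 and 1.53. *Rxrg*, the isotype of muscle and brain, had 0 to 16 reads a library. It was highest in L/Z at PD 52, at FPKM 0.291 in WT and 0.477 in cKO, and had no read in L/Z cKO at PD 24, which at this depth allows FPKM up to 0.0736 (3 reads, a 1-sided limit), while the 2-sided 95% Poisson interval reaches 0.0905.

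Of the LXR genes, *Nr1h2* (LXR beta, expressed in most tissues) exceeded *Nr1h3* (LXR alpha, of liver, fat and macrophages) in every library. The ratio was 6.93 and 8.22 in P WT and cKO at PD 24, 4.05 and 4.09 in L/Z at PD 24, 4.48 and 3.52 in P at PD 52, and 2.88 and 2.23 in L/Z at PD 52. It was thus highest in P at PD 24 and lowest in L/Z at PD 52. *Nr1h3* varied least of the 10 genes, 1.67-fold from its lowest to its highest library.

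Of the coactivators, *Ppargc1a* was at FPKM 0.417 in WT and 0.299 in cKO L/Z cells at PD 24, with 0.436 and 0.623 at PD 52. P cells had 0.744 and 0.595 at PD 24, then 0.236 and 0.669. *Ppargc1a* was lowest in P WT at PD 52, and no 2 neighbours in the order of its levels differed beyond counting error. *Ppargc1b* was at 0.570 in WT and 0.410 in cKO L/Z cells at PD 24, with 0.921 and 1.08 at PD 52. Its P levels were 0.385 and 0.229, then 0.797 and 0.898. *Ppargc1b* was below *Ppargc1a* in the P libraries of PD 24 alone, with ratios of 0.517 in WT and 0.385 in cKO, and above it in the other 6 libraries, with ratios of 1.34 to 3.37.

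The gene models bear little ambiguity. In GENCODE mouse release M21 on GRCm38, *Nr1h2* spans chromosome 7 from 44549616 to 44553951 on the reverse strand, *Rxra* chromosome 2 from 27676440 to 27762957 on the forward strand, and *Rxrb* chromosome 17 from 34031812 to 34038399 on the forward strand. Their exons overlap no exon of another gene on either strand. Of the 10 genes *Nr1h3* alone has such an overlap, of 34 of 2515 exon bases. Windows of 50 bases that also occur in another gene's transcripts made up at most 0.341% of any of the 10 genes' transcript windows, in *Rxrg*.

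The promoters of the 3 genes whose levels passed a test below are shown, as the 250 bases before a RefSeq transcript start (GRCm38.p6), 5′ to 3′ on the strand of the gene. Capitals mark matches on either strand to the GC box GGGCGG, a binding motif of Sp factors. The first is *Nr1h2* at chr7:44553966-44554215 (reverse strand), the second *Rxra* at chr2:27676951-27677200 and the third *Rxrb* at chr17:34031562-34031811 (both forward strand). None of these 3 windows holds an annotated exon base of its gene.
Nr1h2: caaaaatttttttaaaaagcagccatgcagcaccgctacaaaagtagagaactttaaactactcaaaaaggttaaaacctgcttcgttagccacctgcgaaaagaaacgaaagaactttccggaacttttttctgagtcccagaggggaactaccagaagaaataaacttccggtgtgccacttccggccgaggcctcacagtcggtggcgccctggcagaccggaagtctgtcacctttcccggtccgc
Rxra: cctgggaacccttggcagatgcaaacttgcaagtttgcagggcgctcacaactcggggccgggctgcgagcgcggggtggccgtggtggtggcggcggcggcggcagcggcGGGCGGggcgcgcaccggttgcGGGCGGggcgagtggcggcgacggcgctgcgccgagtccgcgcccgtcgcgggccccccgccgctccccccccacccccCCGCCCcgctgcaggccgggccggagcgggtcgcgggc
Rxrb: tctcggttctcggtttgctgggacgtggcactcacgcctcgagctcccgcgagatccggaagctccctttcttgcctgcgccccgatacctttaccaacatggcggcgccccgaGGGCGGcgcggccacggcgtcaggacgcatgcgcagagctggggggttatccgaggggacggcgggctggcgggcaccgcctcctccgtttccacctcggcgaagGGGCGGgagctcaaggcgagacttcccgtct

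The 3 windows differ in composition. *Rxra* has 81.2% G and C with 40 CG pairs, *Rxrb* 69.2% with 31 and *Nr1h2* 48.4% with 13, against a median of 52.4% G and C over the 32851 promoters of the table. GC boxes number 3 in *Rxra*, 2 in *Rxrb* and 0 in *Nr1h2*, and 32.7% of all promoters have at least 1. The core element AGGTCA of nuclear receptor sites, the TATA box TATAAA, the E-box CACGTG, the CCAAT box CCAAT and the cAMP response element TGACGTCA occur on neither strand of these 3 windows. They occur in 14.0%, 12.4%, 6.02%, 33.9% and 1.55% of all promoters. Over the 15 RefSeq promoters of 9 of the 10 genes, AGGTCA occurs in 2 of the 3 *Pparg* promoters and in 1 promoter each of *Rxra* and *Rxrg*. No promoter of the 9 genes holds it as a direct repeat with 1 or 4 bases between, which 0.0335% and 0.0152% of all promoters do. *Rxra* and *Rxrb* each have another RefSeq promoter that is not shown, with 55.2% and 82.4% G and C and with 0 and 3 GC boxes. A match of letters is a description of these windows and no evidence of binding.

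The first comparison asked how the 10 genes differed between MFN2 cKO and MFN2 WT. No gene of the 10 was called over the 4 pairs, and none changed at least 2-fold within a pair on the log2(FPKM + 1) scale among those above FPKM 1. Over the pairs, 7 of the 10 genes were tested, since *Ppara*, *Ppargc1a* and *Rxrg* never exceeded FPKM 1. Of these 7, 0 were called in limma at an adjusted p under 0.05, against 0.137% of all 21175 genes tested (29 called, and 1467 at an unadjusted p under 0.05). By limma voom on the reads 114 genes were called, also none of the 7. *Rxrb* was lower in MFN2 cKO in 4 of 4 pairs, by a mean of -0.28 ± 0.15 (SE, log2), with adjusted p = 0.783. *Pparg* differed by 0.14 ± 0.16 and *Rxra* by -0.12 ± 0.18, both less than their SE. In no gene of the 7 did all MFN2 cKO libraries lie apart from all MFN2 WT libraries, which held for 0.911% of all genes tested. In the fit over all genes without the FPKM filter, *Ppara* differed by 0.08 ± 0.13 (adjusted p = 0.913), *Ppargc1a* by 0.09 ± 0.14 (0.907) and *Rxrg* by -0.01 ± 0.08 (0.993).

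**Figure D3:**
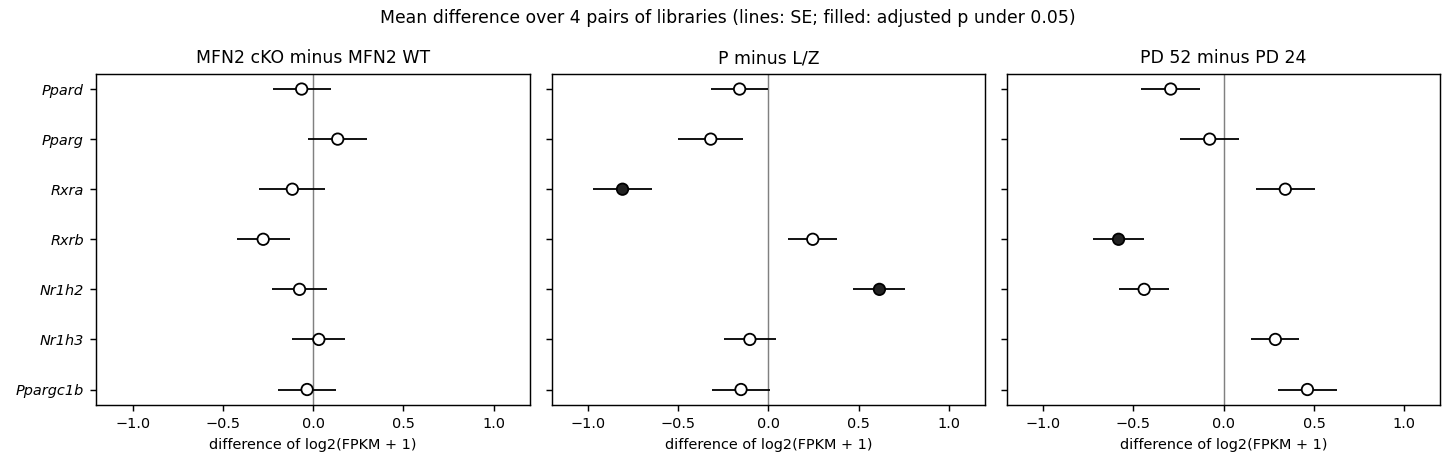
Mean difference of log2(FPKM + 1) over 4 pairs of libraries (points) with its SE (lines) for the 7 genes tested, between genotypes, stages and ages; filled points passed an adjusted p of 0.05. No point is filled for genotype, *Rxra* and *Nr1h2* are filled on opposite sides of 0 for stage, and *Rxrb* is filled below 0 for age.

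Within a pair there is 1 library against 1, so the ratio of scaled reads is given with a 95% exact binomial interval that covers counting error only and is no test of genotype. In P cells at PD 24, where 8.08% of genes changed at least 2-fold, the intervals of all 10 genes included 1, while those of 34.2% of all genes with a read in the pair left it out. The 2-fold shares, here and below, count genes above FPKM 1 in the pair on the log2(FPKM + 1) scale. *Ppara* was at 1.06 (0.648 to 1.72) and *Pparg* at 1.08 (0.698 to 1.69), and *Nr1h2*, with the most reads, at 0.986 (0.927 to 1.05). The intervals of *Ppara* and *Pparg* in this pair are thus several times as wide as that of *Nr1h2*, on 36 to 44 reads a library against 1908 and 2098.

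In P cells at PD 52, where 11.0% of genes changed at least 2-fold, 6 of 10 intervals left out 1, beside 39.8% over all genes with a read. The ratio was above 1 for *Ppargc1a*, at 2.83 (1.76 to 4.69), for *Ppara*, at 2.16 (1.25 to 3.84), and for *Rxra*, at 1.27 (1.10 to 1.48). It was below 1 for *Ppard*, at 0.607 (0.400 to 0.910), for *Rxrb*, at 0.669 (0.583 to 0.767), and for *Nr1h2*, at 0.772 (0.709 to 0.840). *Ppargc1a* rested on 25 reads in WT and 64 in cKO, and *Ppara* on 21 and 41. These 2 genes were below FPKM 1 and so are not among the genes behind the 11.0%. On the log2(FPKM + 1) scale of that share they differed by 0.43 and 0.37. The WT library of this pair was the lowest of the 8 for both genes, and the cKO library was not the highest for either. In the same pair the summed Sertoli cell markers were at FPKM 1010 in WT and 417 in cKO and the Leydig cell markers at 282 and 686.

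In L/Z cells at PD 24, where 10.5% of genes changed at least 2-fold, 4 of 10 intervals left out 1, near the 39.8% over all genes with a read. *Rxra* was at 0.602 of its MFN2 WT level (0.537 to 0.674), with 846 reads in WT and 478 in cKO. *Rxrb* was at 0.867 (0.778 to 0.966) and *Nr1h2* at 1.12 (1.03 to 1.22). *Rxrg* had 7 reads in WT and 0 in cKO. The level of *Rxra* in this L/Z cKO library, FPKM 4.93, was close to the highest P library, at 4.89. In the same pair the spermatid markers were at 2629 in WT and 513 in cKO, and the macrophage markers at 63.4 and 149.

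In L/Z cells at PD 52, where 7.95% of genes changed at least 2-fold, 3 of 10 intervals left out 1, against 34.0% over all genes with a read. *Pparg* was at 1.73 (1.13 to 2.70), on 36 reads in WT and 61 in cKO. *Ppard* was at 0.698 (0.494 to 0.980) and *Rxrb* at 0.787 (0.677 to 0.914). *Rxra*, lower in MFN2 cKO at PD 24, was at 0.959 (0.864 to 1.06). Macrophage markers were at 42.9 in WT and 285 in cKO in this pair.

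**Figure D4:**
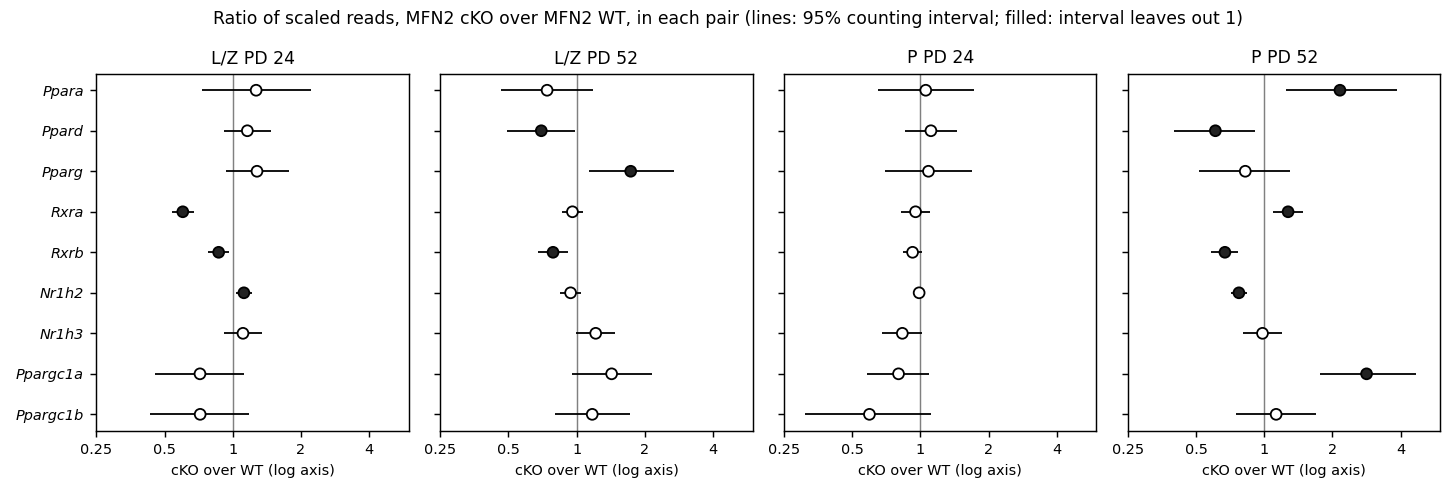
Ratio of scaled reads of MFN2 cKO over MFN2 WT (log axis) in each of the 4 pairs for 9 genes, with 95% exact binomial intervals of the reads; filled points have an interval that leaves out 1, and *Rxrg*, with 0 to 16 reads, is not drawn. In P at PD 24 no point is filled, and in P at PD 52 *Ppargc1a* at 2.83 and *Ppara* at 2.16 lie farthest right while *Ppard* and *Rxrb* lie below 1.

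The change with genotype was not shown to differ between ages or stages for any of the 10 genes. For genotype by age 0.0142% of all genes were called (3 of 21175, with 2641 at an unadjusted p under 0.05, and 624 called by voom), and for genotype by stage 0% (876 at an unadjusted p under 0.05, and 0 called by voom). None of the 7 tested was among them in limma or in voom. *Rxra* had interaction terms of 0.46 ± 0.31 with age (adjusted p = 0.608) and 0.46 ± 0.35 with stage (0.972). *Ppargc1a*, in the fit without the filter, had a term of 0.43 ± 0.21 with age (adjusted p = 0.682).

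The stage comparison gave the clearest differences among the 10 genes. *Rxra* fell and *Nr1h2* rose in P against L/Z. *Rxra* was at FPKM 8.20 in WT and 4.93 in cKO L/Z cells at PD 24, with 9.22 and 8.84 at PD 52. P cells had 3.61 and 3.44 at PD 24, then 3.85 and 4.89 at PD 52. The highest P library lay just below the lowest L/Z library, so the groups did not overlap, as for 15.7% of all genes tested. The mean difference was -0.81 ± 0.16 (adjusted p = 0.0115). The ratio of scaled reads P over L/Z was 0.441 and 0.417 in WT at PD 24 and PD 52, and 0.696 and 0.553 in cKO, with all 4 intervals below 1.

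*Nr1h2* was at FPKM 18.0 in WT and 20.2 in cKO L/Z cells at PD 24, with 14.7 and 13.9 at PD 52. The P libraries reached 31.0 and 30.6 at PD 24, then 24.6 and 19.0 at PD 52. P was above L/Z in each pair, although P cKO at PD 52 lay below L/Z cKO at PD 24. The mean difference was 0.61 ± 0.14 (adjusted p = 0.0196), and the ratio of scaled reads was 1.37 to 1.72. Over all genes 28.4% were called between stages, 12.4% higher and 16.0% lower in P, so that 2 of 7 called is a share like that of all genes. Over the 8 libraries the log2 levels of *Rxra* and *Nr1h2* had a Pearson r of -0.93, a description over libraries that share stage and age. Sertoli cell markers were higher in P, as *Nr1h2* was, and macrophage, peritubular myoid and spermatid markers were lower in P, as *Rxra* was, at the sums given above.

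*Rxra* lost its call without the WT PD 24 pair, with adjusted p = 0.0704, and kept it in all other alternatives, with adjusted p from 0.00257 to 0.0415. *Nr1h2* lost its call without the WT PD 24 pair (0.105), the cKO PD 24 pair (0.0537) or the cKO PD 52 pair (0.0556), and its adjusted p was from 0.00851 to 0.0364 in the other alternatives.

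The other 5 genes tested were not called between stages. *Rxrb* was higher in P in 4 of 4 pairs, by 0.25 ± 0.14 (adjusted p = 0.21), with ratios of scaled reads of 1.09 to 1.29. *Pparg* was lower in P in 3 of 4 pairs, by -0.32 ± 0.18 (0.214), with ratios from 0.471 to 1.22. *Pparg*, *Ppard* and *Ppargc1b* passed the FPKM filter through L/Z libraries alone, so they entered this test only through that stage. *Ppard* and *Ppargc1b* were lower in P in 4 of 4 pairs, by -0.16 ± 0.16 (0.47) and -0.15 ± 0.16 (0.502), and *Nr1h3* differed by -0.10 ± 0.14 (0.608). The RXR pool shifted accordingly: *Rxra* was 34.6% to 58.6% of the summed RXR FPKM in L/Z and 21.8% to 43.2% in P. The ranges overlap, since P cKO at PD 52 lay above both L/Z libraries of PD 24.

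Between ages, *Rxrb* fell from PD 24 to PD 52. At PD 24 its FPKM was 10.8 in WT and 9.34 in cKO L/Z cells, and 12.8 and 11.8 in P cells. PD 52 gave 7.34 and 5.77 in L/Z, and 9.44 and 6.32 in P. Each pair was lower at PD 52, at ratios of scaled reads of 0.533 to 0.735, and the highest PD 52 library lay just above the lowest PD 24 library. The mean difference was -0.58 ± 0.14 (adjusted p = 0.04). Over all genes 17.3% were called, 5.41% lower at PD 52, beside 1 of 7 here. *Rxrb* lost its call without the P cKO pair (adjusted p = 0.193), the L/Z WT pair (0.137) or the L/Z cKO pair (0.0981), without the FPKM filter (0.0738) and in the P libraries alone (0.33); over all alternatives its adjusted p was 0.0236 to 0.33.

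*Ppargc1b*, at the levels given above, was between 0.229 and 0.570 at PD 24 and between 0.797 and 1.08 at PD 52, so that the ages did not overlap, as for 13.4% of all genes tested. It passed the FPKM filter through L/Z cKO at PD 52 alone, so it was tested only through the age where it was higher. The ratio of scaled reads was 1.61 in L/Z WT, 2.64 in L/Z cKO, 2.07 in P WT and 3.92 in P cKO, with all 4 intervals above 1. The mean difference on the log2(FPKM + 1) scale, which understates changes of low genes, was 0.46 ± 0.16 (adjusted p = 0.0951). In limma voom on the reads the difference was 1.22 ± 0.34 (0.0423), and among protein-coding genes alone the call was also made (0.0403). Without the FPKM filter the adjusted p was 0.13. Over the alternatives that tested it, the adjusted p was 0.0403 to 0.294. Without the L/Z cKO pair and in the P libraries alone *Ppargc1b* did not exceed FPKM 1 and was not tested.

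*Nr1h3* was also apart between ages, at FPKM 3.72 to 4.93 at PD 24 and 5.13 to 6.23 at PD 52, with a difference of 0.29 ± 0.13 (adjusted p = 0.17). *Nr1h2* was lower at PD 52 in 4 of 4 pairs, by -0.44 ± 0.14 (0.0761), at ratios of scaled reads of 0.621 to 0.819 and all 4 intervals below 1. *Rxra* was higher in 4 of 4 pairs, by 0.34 ± 0.16 (0.18). *Ppard* was lower in 4 of 4 pairs, by -0.29 ± 0.16 (0.229), and *Pparg* was lower in 2 of 4. *Ppard* passed the FPKM filter through L/Z cKO at PD 24 alone, the age where it was higher. Within each pair of related receptors, *Rxra* and *Rxrb*, and *Nr1h2* and *Nr1h3*, the differences with age had opposite signs. Beside these values, spermatid markers summed to 140 to 2629 at PD 24 and 2320 to 20011 at PD 52, and 7 of 12 Sertoli cell markers were called lower at PD 52.

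The genes around these receptors were read from lists of named genes. Of 58 PPAR target genes 42 were tested. With genotype 0 were called, with 25 of 42 higher in MFN2 cKO and a median of 0.05, beside -0.04 over all genes. The 3 with the largest differences were *Fabp3*, a fatty acid carrier (2.19 ± 0.27, adjusted p = 0.06), *Cd36*, a fatty acid transporter (1.28 ± 0.18, 0.0859), and *Angptl4*, a lipase inhibitor (1.13 ± 0.15, 0.0698). *Fabp3* was at FPKM 4.34 in WT and 31.0 in cKO P cells at PD 24, with 67.3 and 152 at PD 52. L/Z cells had 9.13 and 59.1 at PD 24, then 6.33 and 39.2. It was higher in MFN2 cKO in each pair and highest in both P libraries of PD 52, which also had the most Leydig cell marker RNA.

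With stage 7 PPAR target genes were called higher and 8 lower in P of 42 tested, beside 12.4% and 16.0% of all genes, with a median of 0.10. The largest were *Scd2*, a fatty acid desaturase (2.04 ± 0.35, adjusted p = 0.00717), *Cidea*, a lipid droplet protein (1.76 ± 0.32, 0.00904), and *Cyp27a1*, a sterol hydroxylase (-1.85 ± 0.28, 0.00491). With age 5 were called higher and 2 lower at PD 52, 7 of 42 beside 17.3% of all genes, with a median of -0.19. The counts of the lists below are likewise to be read against 28.4% of all genes called with stage and 17.3% with age.

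Of 10 LXR target genes 9 were tested. None was called with genotype, while 7 of 9 were higher in MFN2 cKO, with a median of 0.07. *Apoe*, the apolipoprotein of many macrophages, differed by 2.01 ± 0.34 (adjusted p = 0.156), *Pltp*, a phospholipid transfer protein, by 1.14 ± 0.29 (0.365), and *Abca1*, a cholesterol exporter, by 0.86 ± 0.18 (0.251). *Apoe* was at FPKM 28.4 in WT and 109 in cKO L/Z cells at PD 24, with 13.4 and 147 at PD 52. P cells had 11.8 and 34.9, then 10.9 and 28.5. Its 2 highest libraries, L/Z cKO at both ages, were also the 2 with the most macrophage marker RNA. With stage *Pltp* (-1.85 ± 0.28, 0.00501), *Apoe* (-1.35 ± 0.31, 0.0177) and *Mylip*, which targets the LDL receptor for decay (-0.68 ± 0.19, 0.0332), fell in P. None was called higher in P, although 2 of 9 had a difference above 0. With age 2 were called lower. *Nr1h2* rose in P while these 3 LXR targets fell.

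Of 13 nuclear receptor coactivators, all tested, 0 were called with genotype, and 12 were lower in MFN2 cKO, with a median of -0.11 beside -0.04 over all genes. The largest differences were those of *Carm1*, an arginine methyltransferase (-0.59 ± 0.29, adjusted p = 0.761), *Lpin1*, a phosphatidate phosphatase that also acts with PGC-1 alpha (-0.32 ± 0.23, 0.854), and *Prmt1*, another arginine methyltransferase (-0.30 ± 0.29, 0.899). With stage *Lpin1* fell in P (-0.93 ± 0.18, 0.0114) and no other was called, the p160 coactivator *Ncoa2* being at 0.51 ± 0.20 (0.101) and *Sirt1*, a deacetylase of PGC-1 alpha, at 0.46 ± 0.16 (0.0727). With age 1 was called higher and 2 lower.

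Of 9 corepressors 8 were tested. None was called with genotype, and *Nr0b1*, *Nrip1* and *Gps2* had the largest differences, of -0.28 ± 0.40, 0.20 ± 0.15 and -0.16 ± 0.16. With stage *Nr0b1*, an inhibitor of steroidogenic transcription that Sertoli cells express, rose in P (1.96 ± 0.40, adjusted p = 0.0126), while *Hdac3*, the deacetylase of the corepressor complex (0.46 ± 0.15, 0.052), and *Tbl1xr1*, a scaffold of it (0.29 ± 0.15, 0.169) were not called. With age 1 was called lower.

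Of 11 PGC-1 partner factors 10 were tested. With genotype 0 were called, and *Esrrb*, an estrogen-related receptor, was at FPKM 0.382 to 0.783 in MFN2 cKO and 1.25 to 2.32 in MFN2 WT, groups that did not overlap, as for 0.911% of all genes (-0.85 ± 0.15, adjusted p = 0.167). *Esrrb* exceeded FPKM 1 in MFN2 WT alone, so it was tested only through the genotype where it was higher. *Tfam*, which packages and transcribes mitochondrial DNA, differed by -0.26 ± 0.26 (0.907) and *Tfb1m*, a mitochondrial rRNA methyltransferase, by -0.24 ± 0.18 (0.865). With stage *Yy1*, a zinc finger factor that works with PGC-1 alpha, rose (0.68 ± 0.14, 0.0127) and *Tfam* fell (-1.31 ± 0.35, 0.0301) in P, and *Tfb1m* was not called (-0.44 ± 0.17, 0.0916). With age 1 was called in each direction.

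Of 11 other receptors that pair with RXR 6 were tested. With genotype *Vdr* differed by -0.47 ± 0.21 (adjusted p = 0.745), *Nr4a1* by 0.44 ± 0.15 (0.62) and *Thra* by 0.26 ± 0.14 (0.787), none called. With stage *Vdr*, the vitamin D receptor, rose in P (1.38 ± 0.20, 0.00487), and *Nr4a1* (-1.37 ± 0.15, 0.00351) and *Nr4a2* (-0.69 ± 0.15, 0.0172), immediate early genes, fell. With age 4 of 6 were called lower and none higher, where 5.41% of all genes were called lower. Without the P cKO pair 0 of all genes were called with age. *Vdr* and *Nr0b1* were higher in P as *Nr1h2* was, and *Nr4a1* and *Nr4a2* lower as *Rxra* was.

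**Figure D5:**
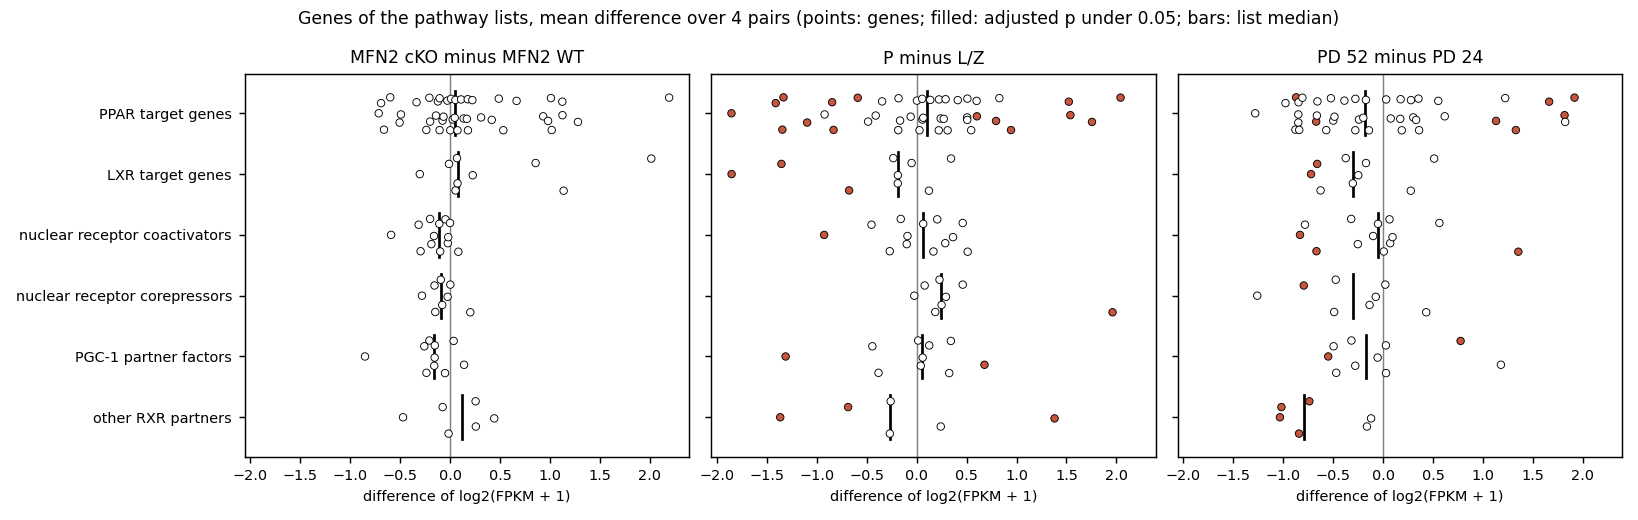
Mean difference of log2(FPKM + 1) over 4 pairs for each tested gene of the 6 pathway lists (points), between genotypes, stages and ages, with the list median as a bar; filled points passed an adjusted p of 0.05. No point is filled for genotype, 7 PPAR target genes are filled above 0 and 8 below 0 for stage, and 4 of 6 other RXR partners are filled below 0 for age.

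The genes with the most similar pattern over the 8 libraries were found among 7502 protein-coding genes with a mean FPKM of at least 5, by Pearson r of log2(FPKM + 1). Libraries share stage, age and marker RNA, so a high r is a description. *Nr1h2* was most like *Nadk*, *Akt2* and *Atp6v0c* (r = 0.99 each), and 538 genes had r above 0.9 with it. *Rxra* was most like *Otud4*, *Cttnbp2nl* and *Cstf2* (0.97 each; 128 genes above 0.9). *Rxrb* was most like *Wdr6*, *Colgalt1* and *Mllt6* (0.96 to 0.97; 89 genes), and *Nr1h3* like *Ndufa4l2*, *Prdx6b* and *Vdac2* (0.97 to 0.98; 135 genes). *Ppargc1b* was most like *Acot10*, *Stambpl1* and *Zfp438* (0.97 to 0.98; 645 genes). *Pparg* was most like *Lmna*, *Cyp27a1* and *Spc25* (0.93 to 0.96; 12 genes) and *Ppard* had *Sec23b* (0.98) and *Ddx21* (0.97) among the genes most like it (38 genes above 0.9).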

How the data were processed

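RNA of 8 libraries, 1 for each stage, genotype and age, was analysed. The authors made the deposited FPKM values with Novomagic from paired-end reads; the strand is not given in the sources used here. The submitters' processing notes list CASAVA 1.4, Bowtie 0.12.2, mm8 and mm9, but 98.1% of the table's genes have the same coordinates in GENCODE M21 (GRCm38). Within a library the deposited FPKM values times gene length were multiples of the value of 1 read, which gave back the reads (100% whole within 0.01), and the authors had scaled them by median-of-ratios factors. log2(FPKM + 1) was tested with limma 3.58.1 (eBayes with trend, 2-sided, Benjamini-Hochberg) over the 21175 genes that exceeded FPKM 1 in some library, in 4 pairs that differed in genotype, stage or age only. The pair was a block and stood for the other factors, so the SE and p measure how far the 4 pairs, 1 library each, differ. DESeq2, which the study names, was not run. Limma voom on the recovered reads was an alternative. The columns that held per-library values were all used.

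The 10 genes and the lists were chosen with earlier results of these data known. Named genes were the 10, *Mfn2*, the 3 genes of each pathway list with the largest mean difference with genotype and the 3 with stage, the 3 most similar genes to each tested one, and the top gene of each marker list. 1 gene that this rule names is not reported here. *Piwil1* was chosen after its values were seen. The fits were tested on simulated data. Promoters came from RefSeq (GRCm38.p6) for 9 of the 10 genes.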

Additional observations from a re-analysis of the deposited data

How the results depend on the processing

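With 1 library per group no spread within a group is known, and precision for the 6 low genes is limited by their reads. For the 10 genes, 0 were called with genotype and for both interactions in every alternative run, and 0 of those above FPKM 1 in a pair changed at least 2-fold there. *Ppara*, *Ppargc1a* and *Rxrg* were tested only without the FPKM filter. Some runs on fewer libraries also left *Ppard* or *Ppargc1b* untested, where these did not exceed FPKM 1. On the log2(FPKM + 1) scale 0 of the 10 changed at least 2-fold in a pair without that filter either. As ratios of scaled reads with nothing added, *Ppargc1a* was at 2.83 and *Ppara* at 2.16 in P at PD 52. *Rxrg* had 7 reads in WT and 0 in cKO in L/Z at PD 24. With stage 2 were called, and without 1 pair 0 to 2. With age 1 was called, 2 by limma voom or among protein-coding genes, 0 without the filter or in P libraries only (added after seeing the data), and 0 to 1 without 1 pair. Fits without the pair block gave the same calls among the 10 genes.

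Counts over all genes moved more. For genotype (29 called) they were 7 with a pseudocount of 0.1, 0 without the filter, 114 by voom, 18 without trend, 71 among protein-coding genes, 3 without the pair block, 0 to 2 without 1 pair and 1807 in PD 24 libraries only (added after seeing the data). For stage (6013) they were 3010 without the filter and 2369 to 5953 without 1 pair, the lowest without WT PD 24 and 3119 without cKO PD 52. For age (3669) they were 791 without the filter, 934 in P libraries only and 0 to 4905 without 1 pair: 0 without P cKO, 1048 without L/Z WT and 1505 without L/Z cKO. For genotype by age (3) they were 74 with a pseudocount of 0.1, 624 by voom, 204 among protein-coding genes and 0 without the filter, with further scaling, without trend and without any 1 pair. Genes changed at least 2-fold within P at PD 24, P at PD 52, L/Z at PD 24 and L/Z at PD 52 numbered 2330, 3364, 3125 and 2683 with a pseudocount of 0.1 and 2476, 3588, 3335 and 2945 as ratios of scaled reads. The cause of these moves was not tested.

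The sign of some uncalled differences with genotype turned: *Nr1h2* (-0.08) to 0.018 without P PD 52 and 0.069 at PD 24 only, *Nr1h3* (0.03) to -0.038 without L/Z PD 52 and -0.045 at PD 24 only, *Ppard* (-0.06) to 0.089 at PD 24 only, *Ppargc1b* (-0.03) to 0.013 without P PD 24 and 0.0071 without L/Z PD 24, and *Rxra* (-0.12) to 0.057 without L/Z PD 24. With age *Pparg* (-0.08) turned to 0.016 without L/Z WT. Without 1 pair the differences with genotype were -0.153 to 0.018 for *Nr1h2*, -0.038 to 0.113 for *Nr1h3*, -0.071 to 0.013 for *Ppargc1b* and -0.248 to 0.057 for *Rxra*, and the difference of *Pparg* with age was -0.169 to 0.016. The range of *Ppargc1b* leaves out the fit without L/Z PD 52, where it did not exceed FPKM 1 and was not tested.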
